A study of Mus musculus with 3 samples.

Results

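The genes described here are 10 components of the cytosolic RNA and DNA sensing pathway, chosen by gene symbol from the 54532 genes of the deposited table: Ddx58, Ifih1, Dhx58, Ifi204, Mavs, Tmem173, Tbk1, Irf3, Samhd1 and Trex1. Each symbol matched exactly 1 gene. They were read in hippocampal RNA of mice at 10 months of age, all on a C57BL/6 background, with 1 library per genotype and 3 libraries in all. WT mice carried no transgene. PS19 mice carry a mutant human tau transgene under the mouse prion protein (Prnp) promoter, which is active mainly in neurons in the brain, and serve as a tauopathy model. PS19 Zbp1+/- mice carry the same transgene and, by the label, 1 inactive allele of Zbp1, a sensor of left-handed nucleic acid helices. The sources used here do not give the sex or number of animals behind a library, or how the Zbp1 allele was made. The comparisons ask how the tau model differs from WT in these genes, and how it differs when Zbp1 dosage is reduced.

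Cells recognise misplaced nucleic acid in the cytosol with receptors that converge on a few adaptors. The helicases RIG-I (Ddx58) and MDA5 (Ifih1) bind double-stranded RNA and signal through Mavs on mitochondria, while LGP2 (Dhx58) binds RNA without signalling domains of its own and tunes the other helicases. DNA receptors act through STING (Tmem173), and both arms activate the kinase Tbk1, which phosphorylates the transcription factor Irf3 to start type I interferon genes. Trex1 and Samhd1 limit the supply of stimulating nucleic acid, and their loss in people causes an interferon-driven brain disease, Aicardi-Goutieres syndrome. Several of the receptors are themselves interferon-stimulated genes. In the brain, microglia are a main source of these transcripts.

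With 1 library per genotype there was no replicate error, so no test was made and no p-value is given. All values describe these 3 libraries. The table holds FPKM, a level scaled to gene length and library size, and whole reads could be recovered from it. Recovered reads ran from 16400328 to 17109734 per library. Library size below is the divisor held in the authors' FPKM scaling, not the recovered total. For PS19 Zbp1+/- it was 15826984 against 17109734 recovered reads, for PS19 17287957 against 16400328 and for WT 17253479 against 16746085. Scaling by total reads would therefore lower each ratio of PS19 Zbp1+/- over another library. A read ratio below is the ratio of reads per library size. Its exact (Clopper-Pearson) 95% interval holds only the error of counting, and PCR copies of a molecule were not told apart. The targeted gene Zbp1 was read 5 times in WT, 91 times in PS19 and 0 times in PS19 Zbp1+/-, which does not tell the loss of 1 allele from the loss of both. Xist had 11062, 13350 and 0 reads in the same order and the Y-linked Ddx3y 0, 0 and 711. By these reads the WT and PS19 libraries were female and the PS19 Zbp1+/- library male. Sex and Zbp1 genotype therefore cannot be told apart in either comparison of PS19 Zbp1+/-. All 4 hippocampal markers checked (Prox1, Wfs1, Neurod6 and Zbtb20) had reads in every library, at FPKM values from 5.20 to 69.4. Their levels were not equal. Prox1 and Zbtb20 were highest in PS19 and lowest in PS19 Zbp1+/-. Wfs1 and Neurod6 were highest in WT and lowest in PS19. Weak genes were less complete in PS19 Zbp1+/-: of 357 genes with 8 to 12 reads in both other libraries, 57 had none there, or 16.0%, against 2.14% for WT and 0.410% for PS19 in the matching counts.

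Promoter sequence was matched for 7 of the 10 genes, from RefSeq on build GRCm38.p6, as 300 bases of which 250 lie before the start of transcription and 50 after it. Dhx58, Ifi204 and Tmem173, each past 2-fold for PS19 over WT, were not matched and so were not searched. The windows were searched on both strands for GAAANNGAAA, the core of the interferon-stimulated response element, for the same half-sites spaced by 1 base (GAAANGAAA), and for the interferon-gamma activated sequence TTCNNNGAA. Ddx58 had a match to GAAANGAAA at positions -60 to -52 and to GAAANNGAAA at 3 to 12 on the reverse strand, counting the first transcribed base as 1. Ifih1 had a match to GAAANNGAAA at positions 33 to 42. Of all 32851 promoter windows, 3.44% held GAAANNGAAA, 3.17% held GAAANGAAA and 8.30% held TTCNNNGAA. Samhd1 matched TTCNNNGAA at -235 to -227, a palindrome and so found on both strands. The windows of Mavs, Tbk1, Irf3 and Trex1 held none of these letters. A match describes letters in a window and not a used site.

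The stretches before the start of Ddx58 (chr4:40239826-40240075, minus strand), a receptor with several times more reads in PS19 than in WT, and of Irf3 (chr7:44997398-44997647, plus strand), a factor with nearly equal reads in both, are shown with the 30 bases around the matches after the start of Ddx58 (chr4:40239804-40239833) and Ifih1 (chr2:62646206-62646235, minus strand). All run 5′ to 3′ on the strand of the gene, and capitals mark a match to GAAANNGAAA or GAAANGAAA on either strand.
Ddx58 before the start: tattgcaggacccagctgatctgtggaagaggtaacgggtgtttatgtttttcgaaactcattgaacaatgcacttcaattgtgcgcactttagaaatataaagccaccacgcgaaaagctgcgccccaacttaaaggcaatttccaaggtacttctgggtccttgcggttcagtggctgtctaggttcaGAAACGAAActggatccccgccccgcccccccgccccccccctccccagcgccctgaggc
Ddx58 around the start: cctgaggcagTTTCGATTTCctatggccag
Ifih1 after the start: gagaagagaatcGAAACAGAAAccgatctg
Irf3 before the start: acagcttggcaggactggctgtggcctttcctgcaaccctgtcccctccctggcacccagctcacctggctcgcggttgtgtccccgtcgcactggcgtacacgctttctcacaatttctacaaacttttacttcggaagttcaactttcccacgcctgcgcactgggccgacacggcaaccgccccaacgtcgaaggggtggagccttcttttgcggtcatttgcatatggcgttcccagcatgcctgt

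The receptors had the largest ratios of PS19 over WT among the 10 genes, from 3.30 for Ifih1 to 15.3 for Ifi204. The adaptors Mavs and Tmem173 had ratios of 1.52 and 2.44, and Samhd1 of 1.69. The kinase Tbk1 and the factor Irf3 were nearly level at 0.911 and 1.09. In PS19 Zbp1+/- the 4 receptors were far below PS19 and at or below WT, the adaptors and Samhd1 were near WT, and Irf3 was below both other libraries. In bulk tissue fewer cells of a type and less RNA per cell cannot be told apart. PS19 enters both of the first comparisons as their shared library, so a high or low value there moves both in opposite directions.

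**Figure D1:**
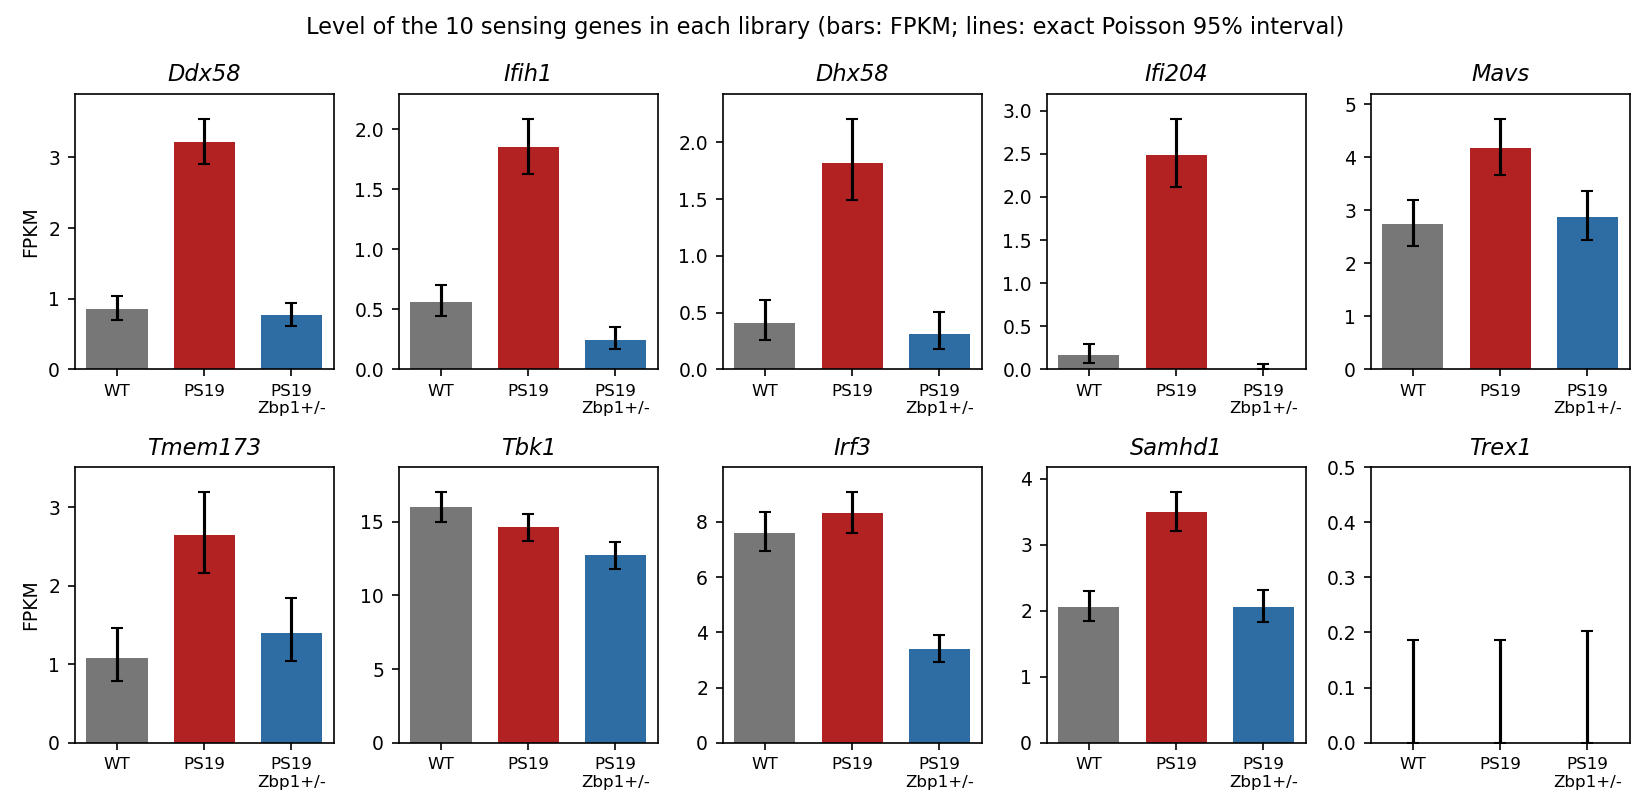
FPKM of the 10 sensing genes in the WT (grey), PS19 (red) and PS19 Zbp1+/- (blue) libraries, 1 library each, with each axis starting at 0 and lines giving the exact Poisson 95% interval for counting error. PS19 is the highest bar for the 4 receptors, Mavs, Tmem173 and Samhd1, Tbk1 is highest in WT, Irf3 is lowest in PS19 Zbp1+/-, and Trex1 is listed at 0 throughout.

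Ddx58 (ENSMUSG00000040296; chromosome 4, 40203773 to 40239828, minus strand) encodes RIG-I, which senses short double-stranded RNA with a triphosphate end. The WT library held it at an FPKM of 0.855 (104 reads), PS19 at 3.22 (392 reads) and PS19 Zbp1+/- at 0.762 (85 reads). Only PS19 stood high, and the counting intervals of the other 2 libraries overlapped. PS19 exceeded WT 3.76-fold (95% interval 3.02 to 4.72), and the ratio was 0.237 for PS19 Zbp1+/- over PS19 (0.185 to 0.300) and 0.891 for PS19 Zbp1+/- over WT (0.661 to 1.20).

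Ifih1 (ENSMUSG00000026896; chromosome 2, 62595798 to 62646255, minus strand) encodes MDA5, the helicase that assembles along long double-stranded RNA. The FPKM was 0.561 for WT (79 reads), 1.85 for PS19 (261 reads) and 0.248 for PS19 Zbp1+/- (32 reads). PS19 was the highest library and, unlike for Ddx58, PS19 Zbp1+/- was also below WT beyond counting error. PS19 exceeded WT by a ratio of 3.30 (2.55 to 4.30). PS19 Zbp1+/- had 0.134 of the PS19 reads (0.0897 to 0.194) and 0.442 of the WT reads (0.283 to 0.674), per library size.

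Dhx58 (ENSMUSG00000017830; chromosome 11, 100694884 to 100704271, minus strand), which encodes LGP2, had the fewest reads of the helicases in every library and is also the shortest of them. It had an FPKM of 0.407, 1.82 and 0.309 in WT, PS19 and PS19 Zbp1+/-, from 23, 103 and 16 reads. The ratio of PS19 over WT was 4.47 (2.82 to 7.36) and that of PS19 Zbp1+/- over PS19 was 0.170 (0.0935 to 0.289). For PS19 Zbp1+/- over WT the ratio of 0.758 (0.374 to 1.5) lay within counting error. Dhx58 shares 4.31% of its exon bases with Dhx58os on the opposite strand, and the sources used here do not say whether reads were counted by strand.

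Ifi204 (ENSMUSG00000073489; chromosome 1, 173747293 to 173766943, minus strand) encodes a DNA-binding protein of the Ifi200 family, a mouse relative of the human sensor IFI16. WT held 10 reads of it, PS19 153 and PS19 Zbp1+/- 0, at FPKM values of 0.163, 2.49 and 0. This was the highest PS19 over WT ratio of the 10 genes, 15.3 (8.08 to 32.5). With the count of 0 set to 3 reads, PS19 Zbp1+/- was 46.7-fold lower than PS19 and 3.06-fold lower than WT. These folds leave out the counting error of the other library and so are not strict bounds. The last fold rests on 10 reads in WT, a range in which PS19 Zbp1+/- lacked reads for 16.0% of genes. Of 3512 windows of 50 bases in Ifi204 transcripts, 703 occur unchanged in another gene, 521 of them in Ifi211, so reads from those windows cannot be placed in 1 family member.

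**Figure D2:**
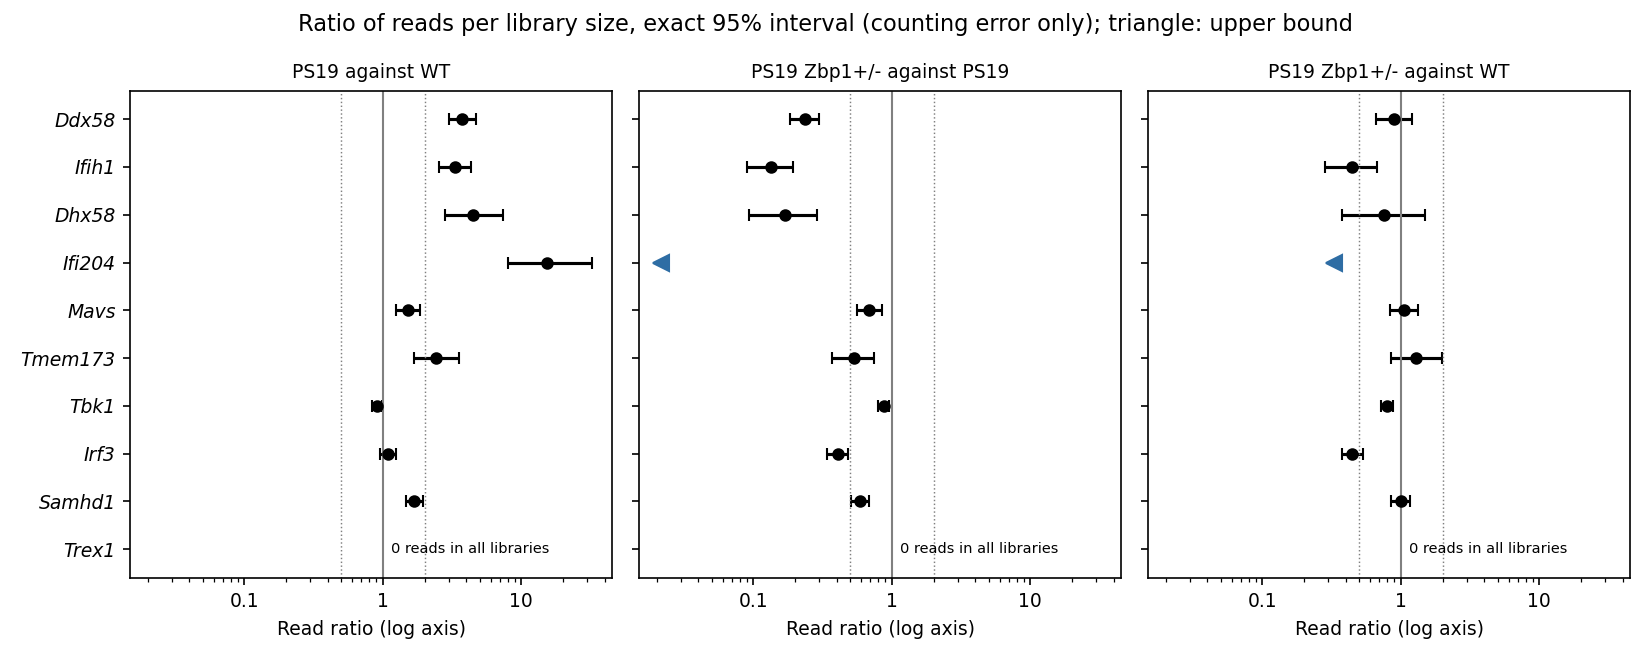
Read ratio of each sensing gene (log axis) in the 3 comparisons, with exact 95% intervals for counting error and dotted lines at 2-fold. Triangles mark the ratio with 0 reads of PS19 Zbp1+/- set to 3, without counting error. The receptors sit right of 2-fold in PS19 against WT and left of it in PS19 Zbp1+/- against PS19, while Irf3 is left of it in both comparisons of PS19 Zbp1+/-.

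Mavs (ENSMUSG00000037523; chromosome 2, 131234063 to 131248025, plus strand), the mitochondrial adaptor of RIG-I and MDA5, stood at an FPKM of 2.74 for WT (158 reads), 4.17 for PS19 (241 reads) and 2.87 for PS19 Zbp1+/- (152 reads). PS19 was the highest by a smaller margin than for the receptors, at a ratio of 1.52 over WT (1.24 to 1.87). This interval lies wholly below those of Ddx58, Ifih1, Dhx58 and Ifi204. PS19 Zbp1+/- over PS19 was 0.689 (0.559 to 0.847), and PS19 Zbp1+/- and WT differed by less than counting error, at 1.05 (0.834 to 1.32).

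Tmem173 (ENSMUSG00000024349) encodes STING, the adaptor in the endoplasmic reticulum that is switched on by the cyclic dinucleotide made by cGAS. The FPKM was 1.08 for WT (43 reads), 2.64 for PS19 (105 reads) and 1.40 for PS19 Zbp1+/- (51 reads). The PS19 library was again highest, with a ratio over WT of 2.44 (1.69 to 3.56). The ratio of PS19 Zbp1+/- over PS19 was 0.531 (0.372 to 0.748). PS19 Zbp1+/- and WT could not be told apart by counting, at 1.29 (0.845 to 1.99). Mb21d1, which encodes cGAS itself, was weak in all libraries, with 34, 50 and 32 reads and a PS19 over WT ratio of 1.47 (0.931 to 2.34). The interval of Mb21d1 includes 1, so a difference was not detectable at this depth.

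Tbk1 (ENSMUSG00000020115; chromosome 10, 121546455 to 121586787, minus strand), the kinase shared by both arms, was the most abundant of the 10 genes per length. The FPKM was 16.0 for WT (1078 reads), 14.6 for PS19 (984 reads) and 12.7 for PS19 Zbp1+/- (787 reads). The order ran opposite to that of the receptors for PS19 and WT, but the gap was small, with a ratio of 0.911 (0.835 to 0.994). That interval holds counting error alone. PS19 Zbp1+/- was lowest, at 0.874 of PS19 (0.794 to 0.960) and 0.796 of WT (0.725 to 0.873). Rescaling to TPM moved the 3 log2 differences of Tbk1 from -0.13 to -0.01 for PS19 against WT, from -0.18 to -0.47 for PS19 Zbp1+/- against PS19 and from -0.31 to -0.48 for PS19 Zbp1+/- against WT.

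Irf3 (ENSMUSG00000003184; chromosome 7, 44997648 to 45002848, plus strand), the factor that Tbk1 phosphorylates, showed another pattern. The FPKM was 7.61 for WT (452 reads), 8.32 for PS19 (495 reads) and 3.40 for PS19 Zbp1+/- (185 reads). WT and PS19 differed by less than counting error, with a ratio of 1.09 (0.960 to 1.24). PS19 Zbp1+/- stood apart below both, at 0.408 of PS19 (0.343 to 0.484) and 0.446 of WT (0.374 to 0.531). Irf3 starts beside Bcl2l12 on the opposite strand and shares 2.56% of its exon bases, 88 bases, with it. Bcl2l12 had 35, 28 and 9 reads, and its ratio of PS19 Zbp1+/- over WT was 0.280 (0.118 to 0.595). The next gene on the other side, Scaf1, had 3604, 3543 and 4741 reads, a ratio of 1.43 for PS19 Zbp1+/- over WT (1.37 to 1.5). Whether the Irf3 value belongs to the genotype, the sex, the animal or the library cannot be told apart with 1 library.

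Samhd1 (ENSMUSG00000027639; chromosome 2, 157097533 to 157135265, minus strand) encodes an enzyme that removes deoxynucleotides. The FPKM was 2.06 for WT (326 reads), 3.50 for PS19 (553 reads) and 2.06 for PS19 Zbp1+/- (298 reads). The ratio of PS19 over WT was 1.69 (1.47 to 1.95), between those of Mavs and Tmem173, and all 3 intervals overlap. PS19 Zbp1+/- was at 0.589 of PS19 (0.510 to 0.679) and at 0.996 of WT (0.849 to 1.17).

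Trex1 (ENSMUSG00000049734; chromosome 9, 109057933 to 109059734, minus strand) encodes the main exonuclease for DNA in the cytosol and is listed at 0 reads in all 3 libraries. In GENCODE M21 all 1147 of its exon bases, 100%, are also exon bases of Atrip on the same strand. Atrip had 455 reads for WT, 405 for PS19 and 500 for PS19 Zbp1+/-. Among 177 protein-coding genes whose exon bases are all shared with another gene, 163 had no read in any library, or 92.1%, against 25.5% of 15485 genes that share none. No level, limit or ratio is therefore given for Trex1.

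**Figure D3:**
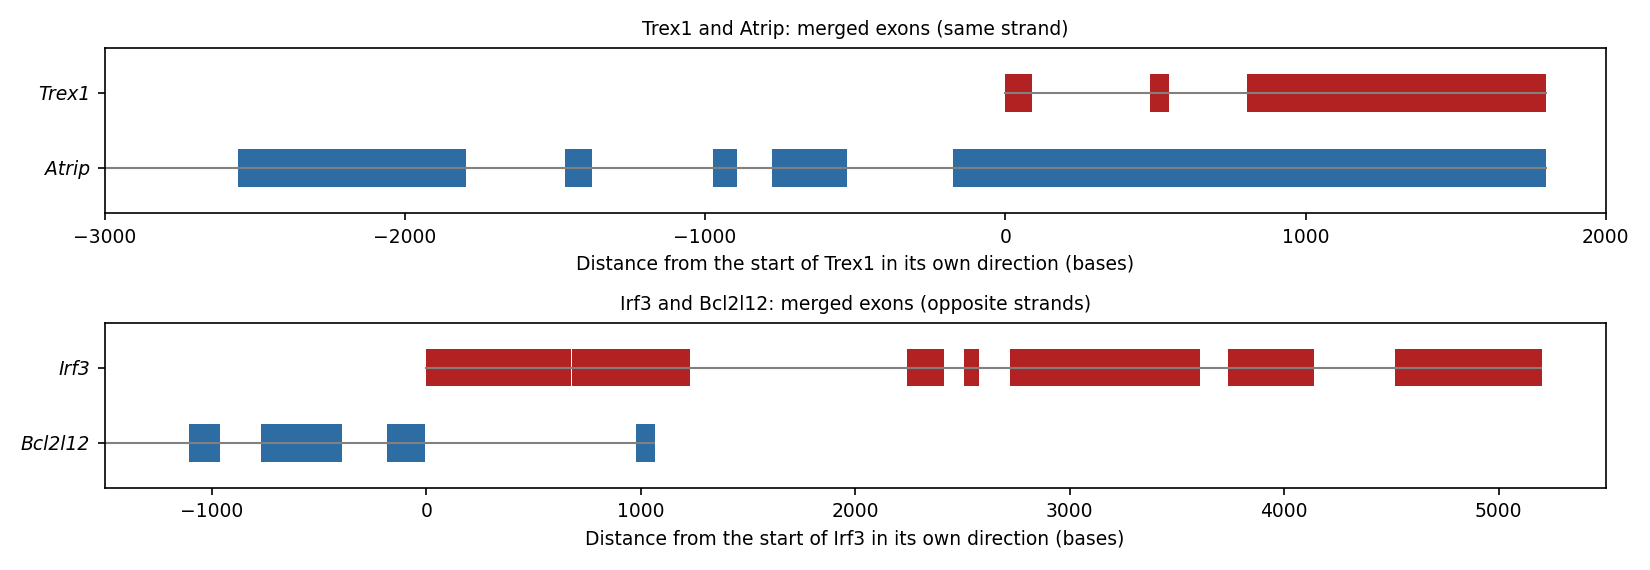
Merged exons (boxes) of Trex1 with Atrip and of Irf3 with Bcl2l12, by distance in bases from the start of Trex1 or Irf3, with the longer neighbours cut off at the left. The 3 exons of Trex1 lie wholly within 1 exon of Atrip, whereas Irf3 shares only a short stretch with an exon of Bcl2l12.

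The counts were read against all protein-coding genes. By read ratio, over genes with at least 30 reads in the 3 libraries together, 5 of the 10 sensing genes reached a ratio of 2 for PS19 over WT (Ddx58, Ifih1, Dhx58, Tmem173 and Ifi204), against 5.77% of 14533 genes. For PS19 Zbp1+/- against PS19, 5 had a 2-fold or greater deficit (Ddx58, Ifih1, Dhx58, Irf3 and Ifi204), against 12.8%. Against WT, 3 genes had such a deficit in PS19 Zbp1+/- (Ifih1, Irf3 and Ifi204), against 7.85%. Trex1 did not reach 30 reads, and the other 9 did, Ifi204 only with its PS19 reads. The genes were proposed with results of these libraries known, so these shares are a description.

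The measure used for the role lists below is the difference of log2(FPKM + 1), over genes whose FPKM reached 1 in 1 or both libraries, with 1 log2 unit counted as higher or lower. On it 9 of the 10 genes entered for PS19 against WT, 4 of them only through their PS19 level, so their count is no support. Differences reached 1 for Ifi204 at 1.58, Ddx58 at 1.18 and Dhx58 at 1.0, while Ifih1 was just short at 0.87. The background was 2.20% higher and 0.291% lower, and 0 of the sensing genes were lower. For PS19 Zbp1+/- against PS19, Ifi204 was at -1.80, Ddx58 at -1.26, Ifih1 at -1.19, Dhx58 at -1.11 and Irf3 at -1.08, with 5.16% of all genes lower and 2.0% higher. All of these but Irf3 entered this comparison too only through their PS19 level, so this count is no support either. For PS19 Zbp1+/- against WT only 5 genes entered and 0 reached 1 log2 unit, Irf3 coming nearest at -0.97, with 2.28% of all genes lower and 1.07% higher.

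Microglia markers were high and low in the same libraries as the receptors, and their part in these values was not tested. The 12 microglia markers had summed FPKM values of 192, 690 and 202 (WT, PS19, PS19 Zbp1+/-), a PS19 over WT ratio of 3.60. By read ratio 10 of the 12 were past 2-fold for PS19 over WT, and 10 were past it downward for PS19 Zbp1+/- against PS19. The microglia markers P2ry12 (490, 444 and 349 reads) and Tmem119 (440, 497 and 374 reads) were not. The 5 astrocyte markers summed to 208, 953 and 218, mostly through Gfap, with 2 of the 5 past 2-fold for PS19 over WT. The 5 oligodendrocyte markers summed to 664, 1168 and 435, with 0 past 2-fold for PS19 over WT and all 5 past it downward for PS19 Zbp1+/- against PS19. In contrast, PS19 was lowest for the sum of the neuron markers, though not for each of them. By FPKM, Rbfox3, Snap25, Syt1, Slc17a7 and Wfs1 were lowest in PS19. Gad2 and Prox1 were highest in PS19, and Gad1 was level between WT and PS19 and lowest in PS19 Zbp1+/-. The 8 neuron markers summed to 729, 629 and 891, and the 4 endothelial markers to 35.4, 36.6 and 51.2. Of the endothelial markers only Cldn5, at 22.4, 19.1 and 38.1, was highest in PS19 Zbp1+/-. Pecam1, Flt1 and Slco1a4 were highest in PS19.

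The 9 markers of border macrophages and other myeloid cells summed to 4.10, 7.39 and 0.702, with 4 of them at 0 reads in the last (Pf4, Ccr2, Ly6c2 and S100a8). The 9 lymphocyte markers summed to 0.651, 1.85 and 0.787, with 3, 1 and 7 of them at 0 reads. They did not share 1 pattern. The T cell marker Cd3e had 0, 4 and 0 reads, whereas Cd4 (5, 10 and 17) and Cd79a (6, 1 and 12) were highest in PS19 Zbp1+/-. The 5 choroid plexus markers summed to 3109, 1899 and 10.4, mostly through Ttr at 3036, 1842 and 7.05. By read ratio all 5 were past 2-fold downward in PS19 Zbp1+/- against both other libraries. Kl was the least reduced, with 2815, 2325 and 351 reads. The part of these cell types and of choroid plexus in the values of the sensing genes was not tested.

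The remaining pathway was followed in 7 lists by role, which count only genes whose FPKM reached 1 in a library of the comparison. Over all lists 81 genes were measured for PS19 against WT. Of these, 6 were at least 1 log2 unit higher (2.20% of all genes) and 0 lower (0.291%). The median difference was 0.10, against -0.03 over all genes. Of the 6, 3 (Rnf125, Irf7 and Ifi207) were measured only through their PS19 level. For PS19 Zbp1+/- against PS19, 8 of 81 were lower and 0 higher, with a median of -0.11 against 0.04, and 5 of the 8 (Rnf125, Trim56, Casp8, Irf7 and Ifi207) were measured only through PS19. These counts over the lists are therefore a description. By read ratio, whose filter takes the 3 libraries together, 16 of 92 genes of the lists were past 2-fold upward for PS19 over WT (5.77% of all genes) and 20 of 92 downward for PS19 Zbp1+/- against PS19 (12.8%). Both counts hold Rnf125, Ddx60, Nlrc5, Ifi206, Ifi207, Ifi209 and Ifi213, which reach 30 reads only with their PS19 reads. The read ratio counts are therefore a description too. For PS19 Zbp1+/- against WT, 1 of 74 was higher (1.07% of all genes) and 0 lower (2.28%) by at least 1 log2 unit. The median was 0.08 against 0.01. By read ratio 3 of 92 were past 2-fold upward in that comparison and 4 downward, where 11.3% of all genes were past it in either direction.

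Among 20 measured cofactors and regulators of the RNA receptors, 3 were higher in PS19 than in WT and 0 lower, with a median of 0.01. Zc3hav1, an antiviral zinc finger protein that binds viral RNA, had 133 reads for WT, 440 for PS19 and 142 for PS19 Zbp1+/-, a difference of 1.17. Trim25, a ubiquitin ligase long studied as an activator of RIG-I, had 160, 436 and 177 reads, a difference of 1.04. Rnf125, a ligase that marks RIG-I for degradation, had 10, 44 and 7 reads, a difference of 1.02. Both an activator and an inhibitor of RIG-I were thus higher in the PS19 library, and the other 17 measured genes of the list were not past 1 log2 unit. Against PS19, 2 of the 20 were lower in PS19 Zbp1+/-.

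The 13 measured DNA receptors and partners had a median of 0.09, with 0 past 1 log2 unit between PS19 and WT. The largest difference was that of Trim56, a ubiquitin ligase of the STING arm, at 0.90 with 181, 479 and 107 reads, which at -1.21 was the 1 gene of the list lower in PS19 Zbp1+/- than in PS19. Aim2, the DNA receptor of an inflammasome, was at 0.65 with 60, 129 and 37 reads. Hnrnpa2b1, an RNA-binding protein reported as a nuclear DNA sensor, was at -0.19. The 15 measured STING regulators had a median of 0.02 and 0 past the threshold in any comparison. The most different of them were Trim32 at -0.36, Insig1 at -0.31 and Lrrc8d at 0.18. For PS19 over WT, STING itself, at a read ratio of 2.44, was above the regulators listed for it, of which Enpp1 was highest at 1.44. Enpp1 was also below STING for PS19 Zbp1+/- over PS19, at 0.404 against 0.531.

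The kinase and adaptor layer around Tbk1 had a median of 0.18 over 12 measured genes, with 0 past the threshold between PS19 and WT. Casp8, a protease that joins Ripk1 and Fadd in cell death complexes, was at 0.83, the autophagy receptor Optn at 0.35 and the kinase Ripk1 at 0.29. Casp8, at -1.24, was the 1 gene of the layer lower in PS19 Zbp1+/- than in PS19. Among interferon regulatory factors, interferons and their receptor, 2 of 6 measured genes were higher in PS19 than in WT, with a median of 0.59, and the median for PS19 Zbp1+/- against PS19 was -0.81. Irf7, the interferon-induced partner of Irf3, was at 1.44 with 46, 236 and 31 reads, and Irf5 at 1.14 with 67, 208 and 68 reads. Irf9, part of the factor that binds interferon response elements, was at 0.76 with 279, 540 and 170 reads. These 3 were the genes of this list below -1 in PS19 Zbp1+/- against PS19, at -1.60, -1.05 and -1.18. Ifnb1, the interferon gene that Irf3 acts on, had 0 reads in every library.

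Enzymes that remove or edit stimulating nucleic acid were close to level, with a median of 0.15 over 13 measured genes and 0 past the threshold between PS19 and WT. Adarb1, an adenosine deaminase acting on RNA, was at 0.75 with 2797, 4851 and 2962 reads. Dnase1, a secreted nuclease, was at 0.54 with 54, 103 and 148 reads. On the log2(FPKM + 1) measure it was the 1 gene of all the lists past the threshold upward in PS19 Zbp1+/- against WT, at 1.0. Rnaseh2c, a subunit of ribonuclease H type 2, was at -0.35.

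**Figure D4:**
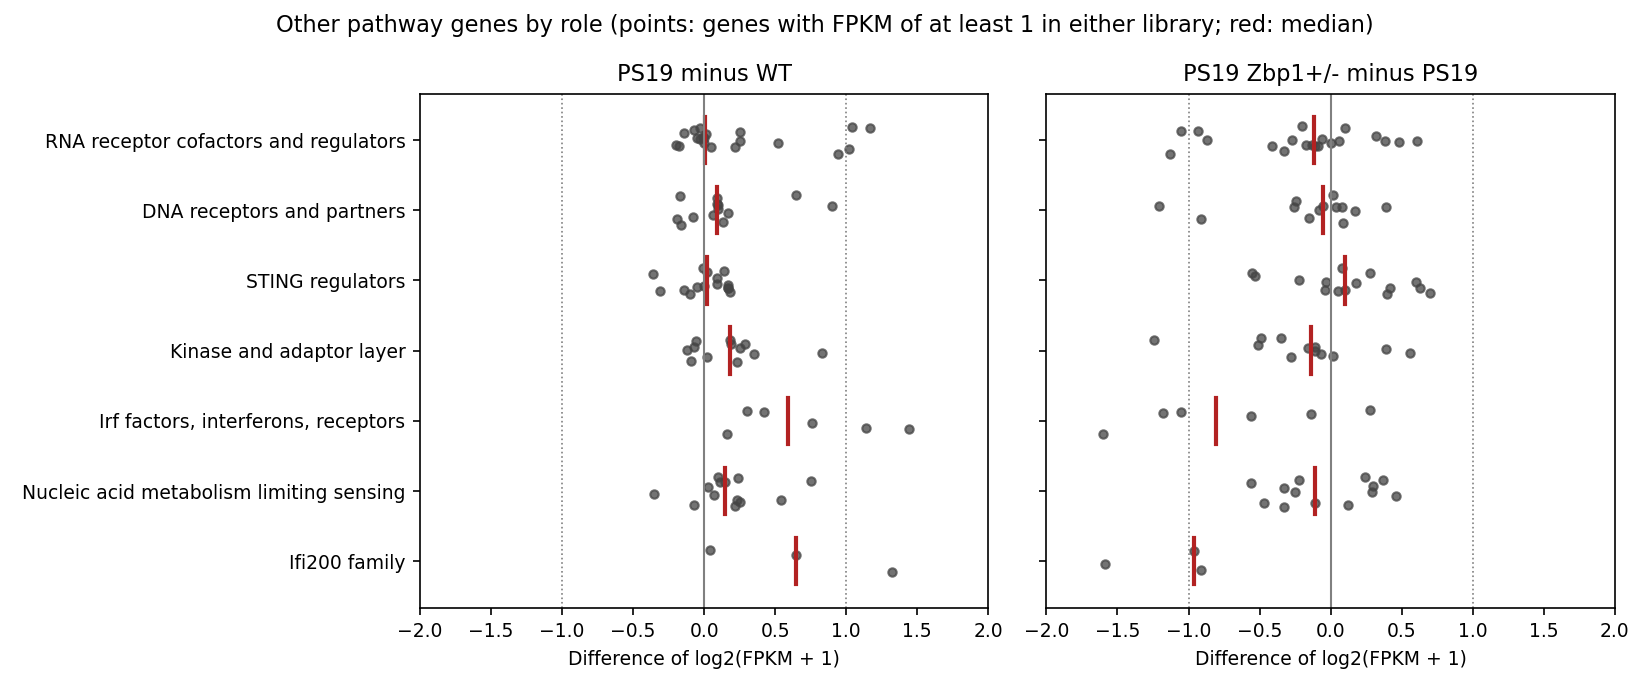
Difference of log2(FPKM + 1) for the measured genes of the 7 role lists, PS19 minus WT at the left and PS19 Zbp1+/- minus PS19 at the right, with red bars at the list medians and dotted lines at 1 log2 unit either way. Most points lie between the dotted lines, and Zc3hav1, Irf7 and Ifi207 are among those outside. In the list of interferon factors, interferons and receptors, 3 of 6 points lie outside at the right.

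The neighbours of Ifi204 in the Ifi200 family did not all follow it. With Ifi204, 13 family genes were in the table, and their reads summed to 261, 765 and 69 for WT, PS19 and PS19 Zbp1+/-, where 8 of the 13 had 0 reads. Of the neighbours, 3 reached an FPKM of 1 in a library (Ifi207, Aim2 and Mndal), with a median log2 difference of 0.65 for PS19 against WT and -0.96 for PS19 Zbp1+/- against PS19, and Ifi207 alone was past 1 log2 unit in either. Ifi207 had 12, 119 and 0 reads, a PS19 over WT ratio of 9.90 (5.46 to 19.7). With the count of 0 set to 3 reads, PS19 Zbp1+/- was 36.3-fold below PS19. Aim2 had a PS19 over WT ratio of 2.15 (1.57 to 2.97) and a ratio of 0.313 (0.211 to 0.455) for PS19 Zbp1+/- over PS19. Mndal was level between WT and PS19, with 87 and 91 reads and a ratio of 1.04 (0.769 to 1.42), yet had 15 reads in PS19 Zbp1+/-, or 0.188 of WT (0.101 to 0.327). Ifi203, chosen after its values were seen, resembled Mndal with 75, 91 and 14 reads and a PS19 Zbp1+/- over WT ratio of 0.203 (0.106 to 0.363). The weaker Ifi206, Ifi208, Ifi209, Ifi211 and Ifi213, looked at in the same way, were like Ifi204 and Ifi207, with 2 to 5 reads in WT, 21 to 58 in PS19 and 0 or 1 in PS19 Zbp1+/-. Their PS19 over WT ratios ran from 4.39 for Ifi208 (1.62 to 14.8) to 22.0 for Ifi213 (5.73 to 187). Thus 7 family genes, Ifi204 among them, had a PS19 level far above both others, whereas for Mndal and Ifi203 the PS19 Zbp1+/- library was the one apart. The remaining Ifi205, Ifi214 and Ifi202b had at most 2 reads in a library. From 7.29% to 72.8% of the 50-base windows of Ifi207, Mndal, Ifi203 and Ifi211 recur in another gene, so the split of reads within the family is uncertain.

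**Figure D5:**
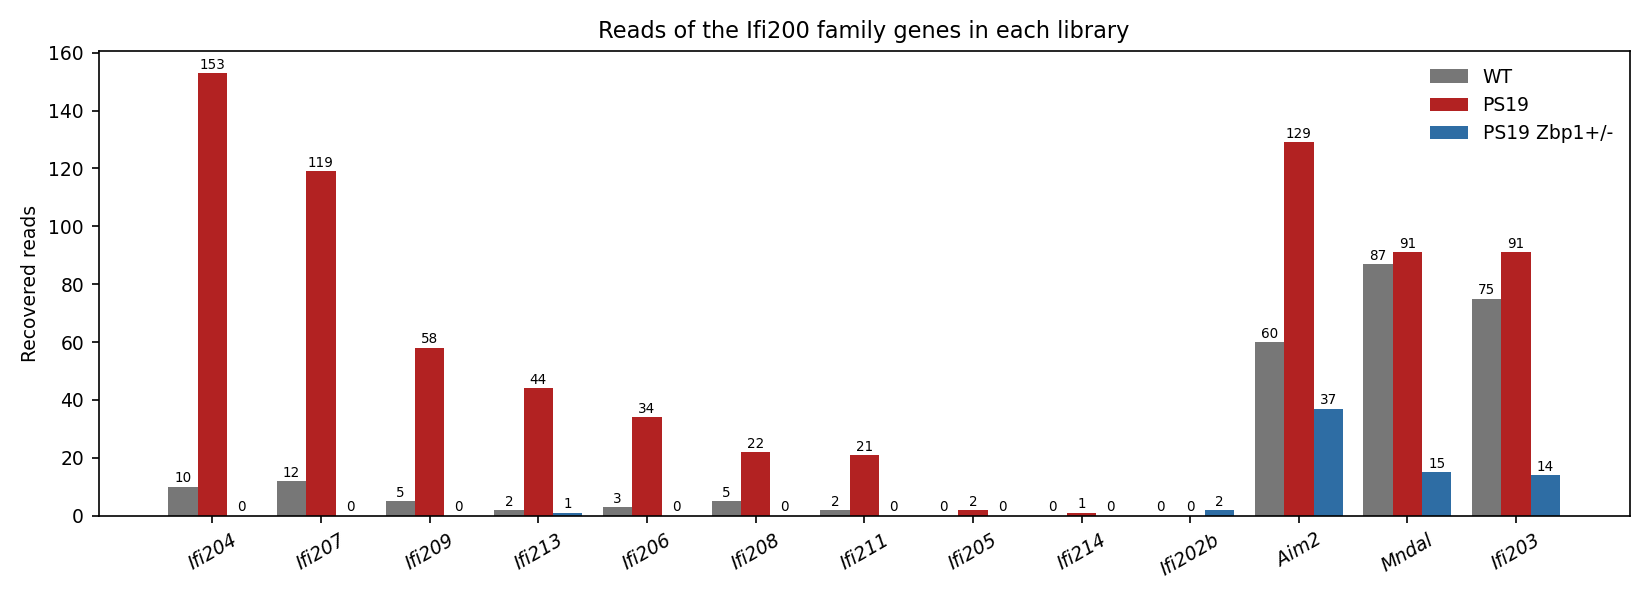
Recovered reads of 13 Ifi200 family genes in the WT (grey), PS19 (red) and PS19 Zbp1+/- (blue) libraries, with the number above each bar. Ifi204 and Ifi207 are high only in PS19 (153 and 119 reads), whereas Mndal and Ifi203 are alike in WT and PS19 and low in PS19 Zbp1+/-.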

How the data were processed

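Hippocampal RNA was extracted with TRIzol and made into libraries with an NEB Next Ultra kit, per the labels' protocols. Trim Galore 0.6.5, STAR 2.5.3a, featureCounts 2.0.4 and the build mm39 are named in the submitters' processing notes, without roles. The deposited FPKM table is the authors' own scaling. Its gene positions equal those of GENCODE M21 (GRCm38) for 98.3% of 54495 matched gene IDs, and its gene lengths equal merged M21 exons for 98.0%. Positions are therefore given as GRCm38. FPKM times gene length was a whole multiple of 1 step, within 0.05 of a read, for 100% of values in each library, which gave whole reads and library sizes of 15826984 to 17287957.

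Differences are of log2(FPKM + 1), with a pseudocount of 1. Read ratios carry exact 95% intervals. A count of 0 was set to 3 reads to give a fold, which leaves out the counting error of the other library. Exon overlap and shared 50-base windows came from GENCODE M21. One symbol of the role lists (Suv3l1) and 4 of the Ifi200 family were not analysed here. Alternatives changed the pseudocount, filter, scaling, fold, measure and biotypes. The genes and lists were chosen with earlier results of these data known. From the role lists, the named genes are the 3 with the largest PS19 against WT difference, with Mb21d1, Ifnb1 and any Ifi200 gene at an FPKM of 1. Procedures were tested on simulated data. Computation used scipy 1.17.1, pandas 2.3.3 and numpy 2.4.6 under Python 3.11.15, and matplotlib 3.10.9 drew the plots.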

Additional observations from a re-analysis of the deposited data

How the results depend on the processing

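The number of sensing genes past the threshold between PS19 and WT was 3. It was 5 with a pseudocount of 0.1, after rescaling to TPM, with read ratios (reads set to at least 3, or over genes with at least 30 reads, an alternative added after the data were seen) and at 1.5-fold, and 0 at 4-fold and with a mean FPKM of at least 5, which only 2 of the 10 genes reach. The share of all genes called, in either direction, moved with these counts, from 2.5% to 5.05% with a pseudocount of 0.1, 5.98% after TPM, 5.47% and 7.31% with the read ratios and 9.05% at 1.5-fold. At 4-fold it was 0.307%, and with a mean FPKM of at least 5 it was 1.52%. Between PS19 Zbp1+/- and PS19 it was 5, and fell outside 1.5 times only at 4-fold (0) and with a mean FPKM of at least 5 (1), while the share of all genes called ran from 0.893% at 4-fold to 21.5% at 1.5-fold. Between PS19 Zbp1+/- and WT it was 0. It was 1 with pseudocounts of 0.1 (6.70% of all genes called) and 0.5 (4.77%), with scaling by total reads (3.64%) and after TPM (7.78%). It was also 1 with read ratios set to at least 3 reads (7.39%) and at 1.5-fold (13.8%). It was 3 with read ratios over genes with at least 30 reads, where 11.3% of all genes were called against 3.35%.

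Of 65 single-gene values recomputed for PS19 against WT and 65 for PS19 Zbp1+/- against PS19, 0 changed sign. Of 48 for PS19 Zbp1+/- against WT, 2 did, both for Mavs, whose 0.05 turned to -0.06 with scaling by total reads and -0.08 after TPM. Over all genes the median went under TPM from -0.03 to 0.11, from 0.04 to -0.25 and from 0.01 to -0.15 in the 3 comparisons, and total reads moved the last 2 to -0.12 and -0.13. Depth limits the genes with few reads, such as Rnf125 (10, 44 and 7) and Dhx58 (23, 103 and 16). No paired analysis was possible because each genotype has 1 library.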

Other observations

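The interferon genes themselves were looked at after the values above had been seen. Of 21 protein-coding type I, II and III interferon genes in the table, 20 had 0 reads in all 3 libraries. The exception was Ifne, with 2 reads, both in PS19.

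Of the cofactors of the RNA receptors, a pair below the naming rule had high ratios at low levels, and they were picked after their values were seen. Ddx60, a helicase linked to RIG-I signalling, had 7 reads for WT, 126 for PS19 and 17 for PS19 Zbp1+/-, a PS19 over WT ratio of 18.0 (8.47 to 45.6). Nlrc5, a regulator of MHC class I genes, had 15, 163 and 14 reads, a ratio of 10.8 (6.38 to 19.8). Their differences on the log2(FPKM + 1) scale were 0.81 and 0.94, under the 2-fold threshold, since that scale understates the change of weak genes.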
